A study of Mus musculus with 8 samples.

Results

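The genes described here encode the keratins of the hair shaft and of the inner root sheath, the sleeve of cells that surrounds and moulds the growing hair, together with transcription factors of the hair matrix and proteins that harden the sheath. They were chosen by name, and 31 of 32 listed genes were found among the 27179 genes of the count table by their Entrez identifiers, while 1 was not analysed here. The 31 genes comprise 4 type I and 4 type II keratins of the inner root sheath, 7 type I and 5 type II hair keratins, 7 matrix regulators, and 4 genes for trichohyalin, 2 deiminases and mu-crystallin. All 31 passed the filter on low counts and were tested.

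RNA was sequenced from epidermal cells of aged mice (labelled 73 weeks) and adult mice (labelled 17 to 25 weeks), with 4 libraries of each and 1 mouse per library by the study's methods. All mice carry the strain label C57bl/6J. The labels also give every mouse, adult mice included, control IgG into the abdominal cavity, at 210 µg in 100 µl, 3 times a week over 12 weeks. The methods describe such injections for ageing mice only, with 73 weeks as the age when the 12 weeks began. They give a higher age for aged mice in general, so the labelled age may be that at the start of injections. Injection and exact age at sampling are not settled for either group. Any injection given to aged mice alone could not be told apart from age. The cells came from whole torso skin that was cleared of fat and treated with dispase before the epidermis was scraped off, and the methods do not say how much of the growing follicles came with it. Neither labels nor methods give the stage of the hair cycle in each mouse.

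Keratin filaments are built from pairs of a type I and a type II chain, and each layer of the follicle uses its own pairs. In mice, hair keratins and inner sheath keratins are made in the lower part of growing follicles, where matrix cells divide and then differentiate into shaft and sheath, and follicles at rest make little of them. In the inner sheath, trichohyalin fills the cells, is modified by peptidylarginine deiminases and is then crosslinked to the keratin filaments by transglutaminases.

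The type I keratins described here lie on chromosome 11 and the type II keratins on chromosome 15. Promoter windows from RefSeq (GRCm38.p6, 250 bases before to 50 after the start of transcription) were matched for 22 of the 31 genes, 14 of them keratins. The 60 bases before the start are shown for keratins whose levels moved together across the mice (Krt25, Krt28, Krt71, Krt73, Krt31 and Krt34), for Krt32, whose levels did not follow them, and for Krt82 and Krt84. Capitals mark TATAAA, the letters of a TATA box, and all of these genes lie on the minus strand.
Krt25 (inner sheath type I, chr11:99322952-99323011): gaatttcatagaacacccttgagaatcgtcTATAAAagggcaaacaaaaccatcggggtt
Krt28 (inner sheath type I, chr11:99374904-99374963): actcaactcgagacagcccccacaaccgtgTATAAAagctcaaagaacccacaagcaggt
Krt71 (inner sheath type II, chr15:101743098-101743157): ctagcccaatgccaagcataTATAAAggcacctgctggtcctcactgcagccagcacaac
Krt73 (inner sheath type II, chr15:101802361-101802420): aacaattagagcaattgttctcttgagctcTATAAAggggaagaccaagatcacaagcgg
Krt31 (hair type I, chr11:100050552-100050611): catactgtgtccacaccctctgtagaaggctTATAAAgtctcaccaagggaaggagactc
Krt34 (hair type I, chr11:100041555-100041614): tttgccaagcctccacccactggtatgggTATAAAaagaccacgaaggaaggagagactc
Krt32 (hair type I, chr11:100088270-100088329): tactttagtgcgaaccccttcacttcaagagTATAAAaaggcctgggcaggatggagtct
Krt82 (hair type II, chr15:101550660-101550719): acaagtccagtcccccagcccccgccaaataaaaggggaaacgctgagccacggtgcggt
Krt84 (hair type II, chr15:101532821-101532880): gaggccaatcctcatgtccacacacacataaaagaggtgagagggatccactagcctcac

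TATAAA began 30 bases before the start in Krt25, Krt28 and Krt73, 31 bases before it in Krt34, 29 bases before it in Krt31 and Krt32, and 40 bases before it in Krt71. On the forward strand, 9 of 14 keratin promoters held it with its first base 50 to 21 bases before the start, against 2.32% of all 32851 promoter windows. On either strand and anywhere in the window, 12 of 14 keratin promoters held TATAAA (13.6% of all windows), 5 held CTTTGA, the core of Lef1 and Tcf sites (16%), and 4 held the letters AGATAA of sites bound by Gata factors (11.2%). A site of the Hoxc13 type, spelled TTTATNAA, TTTATNAG, TTTATNGA, TTTATNGG, TTAATNAA, TTAATNAG, TTAATNGA or TTAATNGG, was present in 11 of 14 (18.9% of all windows). Such a site can share letters with TATAAA, and 7 of 14 held a copy overlapping none (16%). Keratins were counted by gene and the background by window, so these shares have unlike units. These are matches of letters in a window, not measured binding.

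The libraries held 75027694 to 90140102 counts. Of these, mt-Rnr2, a ribosomal RNA of the mitochondria, made up 17.3%, 14.2%, 18.1% and 21.5% in aged libraries 1 to 4. In adult libraries 1 to 4 it made up 14.0%, 14.15%, 20.7% and 25.8%, so libraries 3 and 4 were higher in both ages. The markers of interfollicular keratinocytes (Krt5, Krt14, Krt1, Krt10, Epcam and Trp63) summed to 11680 to 15040 CPM (counts set to an equal total per library after trimmed-mean scaling) in aged and 10020 to 12750 CPM in adult libraries, in keeping with the labelled cell type. Adult libraries 3 and 4 stood apart, with 197 and 389 CPM over 12 proliferation genes against 468 to 601 CPM in the other 6, and with 32.2 and 75.2 CPM over 5 leukocyte markers against 89.9 to 249 CPM in the others. Age comparisons of the genes of the set that are shown in each library are therefore given with and without these 2 libraries, a choice made with earlier results of these data known. The fit without them keeps aged libraries 3 and 4, so its groups hold unlike library numbers.

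Levels of these genes differed far more between mice of the same age than between the ages. The 20 keratins summed to 262, 28.2, 105 and 57.1 CPM in aged libraries 1 to 4, against 30.2, 108.5, 297 and 671 CPM in adult libraries 1 to 4. Aged library 1 thus held 9.31 times the keratin RNA of aged library 2, and adult library 4 held 22.2 times that of adult library 1. The means were 113 ± 104 CPM in aged and 277 ± 286 CPM in adult mice (SD, n = 4 each), and the groups overlapped. As a share of all counts, the 20 keratins took 0.00298% to 0.0275% in aged and 0.00336% to 0.0595% in adult libraries, so these transcripts were a minor part of the epidermal RNA in every mouse. In bulk samples, fewer cells of a type and less RNA per cell cannot be told apart.

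**Figure D1:**
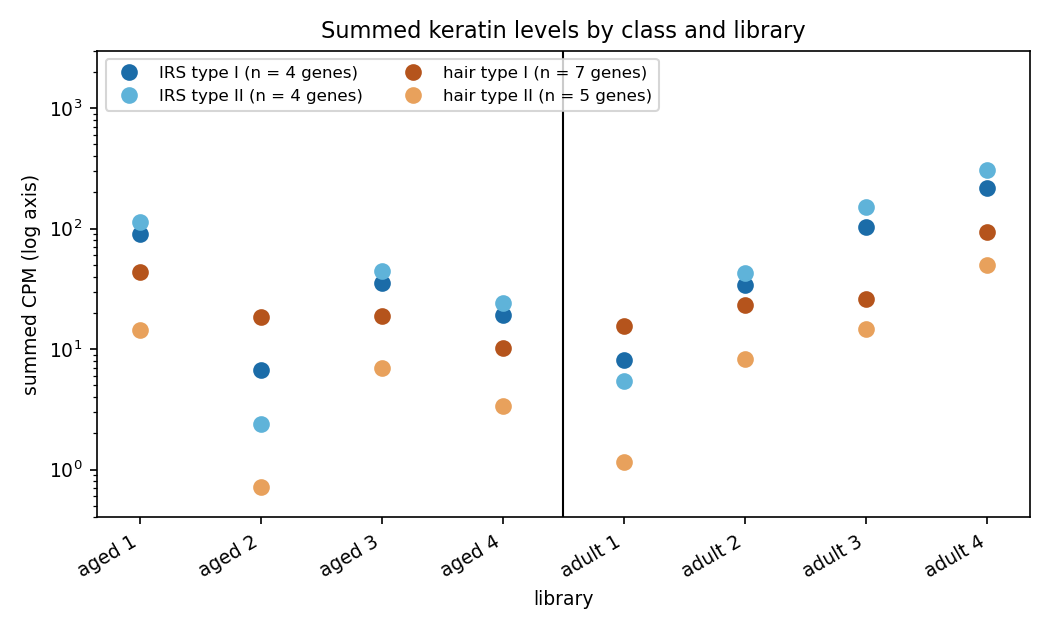
Summed level in CPM (log axis) of the inner root sheath (IRS) and hair keratins in each library, aged libraries left and adult libraries right, 1 point per class. Adult library 4 and, among aged mice, library 1 are the highest, and aged library 2 and adult library 1 hold the lowest sums of all classes but hair type I, where the lowest is aged library 4 at 10.1 CPM.

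No gene of the set passed the test for age. With edgeR's quasi-likelihood test, called at an adjusted p under 0.1 and a log2 fold change beyond 0.32 in either direction, 0 of 31 were called against 0.113% of all 17702 tested genes. Over the whole table, aged cells had 5 genes called higher (0.0282%) and 15 called lower (0.0847%). At an unadjusted p under 0.05, edgeR had 0 of 31 against 5.99% of all genes. DESeq2 called 0 of 31 (1.07% of all genes), with 2 at an unadjusted p under 0.05, Hoxc13 and Krt82 (7.54% of all genes). With limma-voom 0 of 31 were called (0.096% of all genes) and 0 had an unadjusted p under 0.05 (6.02%). With the replicate number as a block, edgeR called 0 of 31 and 3 genes in all (0.0169%), and 1 of 31 had an unadjusted p under 0.05 (12.6%). Groups that do not overlap were seen for 0 of 31 genes, against 3.54% of all genes.

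The direction of the estimates changed with the adult mice included. With all 8 libraries, 28 of 31 log2 fold changes (aged over adult) were under 0, against 47.9% of all genes, and 19 of 31 were under -1, against 1.76%. The median was -1.08 over the set and 0.01 over all tested genes, with a median standard error (SE) of 0.98 within the set. Adult libraries 3 and 4 held the highest keratin sums of the adult mice (297 and 671 CPM, against 30.2 and 108.5 CPM). Leaving them out therefore raises most of these estimates by construction. Without adult libraries 3 and 4, 28 of 31 were above 0, against 52.6% of all genes, and the median was 0.57. In that fit edgeR called 0 of 31 (0.0549% of all genes), and 0 of 31 had an unadjusted p under 0.05 (3.21%). Leaving out adult library 4 alone brought the median to -0.25, and leaving out aged library 1 alone brought it to -2.13.

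**Figure D2:**
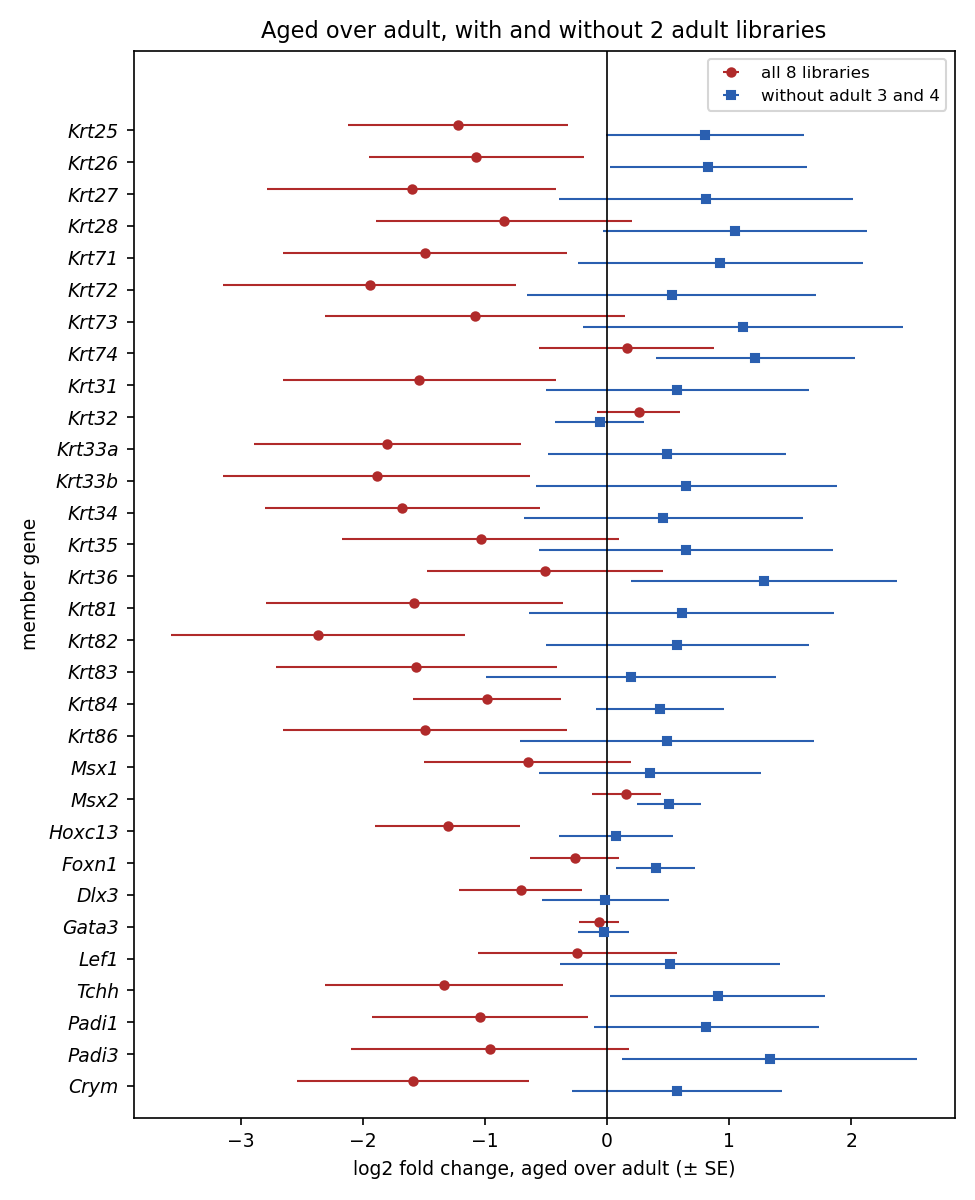
Log2 fold change of aged over adult with its standard error for the 31 genes, by edgeR, with all 8 libraries (circles) and without adult libraries 3 and 4 (squares). Medians are -1.08 with all libraries and 0.57 without the pair, and no gene passed the test in either fit. The omitted pair held the highest keratin sums of the adult mice, so its omission raises most estimates by construction.

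The same few mice were high or low for most of these genes. Adult library 4 was the highest for 24 of 31, against 8.01% of all genes, and aged library 2 was the lowest for 25, against 16%. Aged library 1 and adult libraries 3 and 4 were the 3 highest for 23 of 31 (2.5% of all genes), and aged library 2 and adult library 1 were the 2 lowest for 24 (2.65%). Below adult library 4, the order of aged library 1 and adult library 3 varied by gene, with aged library 1 above adult library 3 in 18 of 31 genes. The genes share these 8 libraries, so they are not independent measurements of the same ordering.

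**Figure D3:**
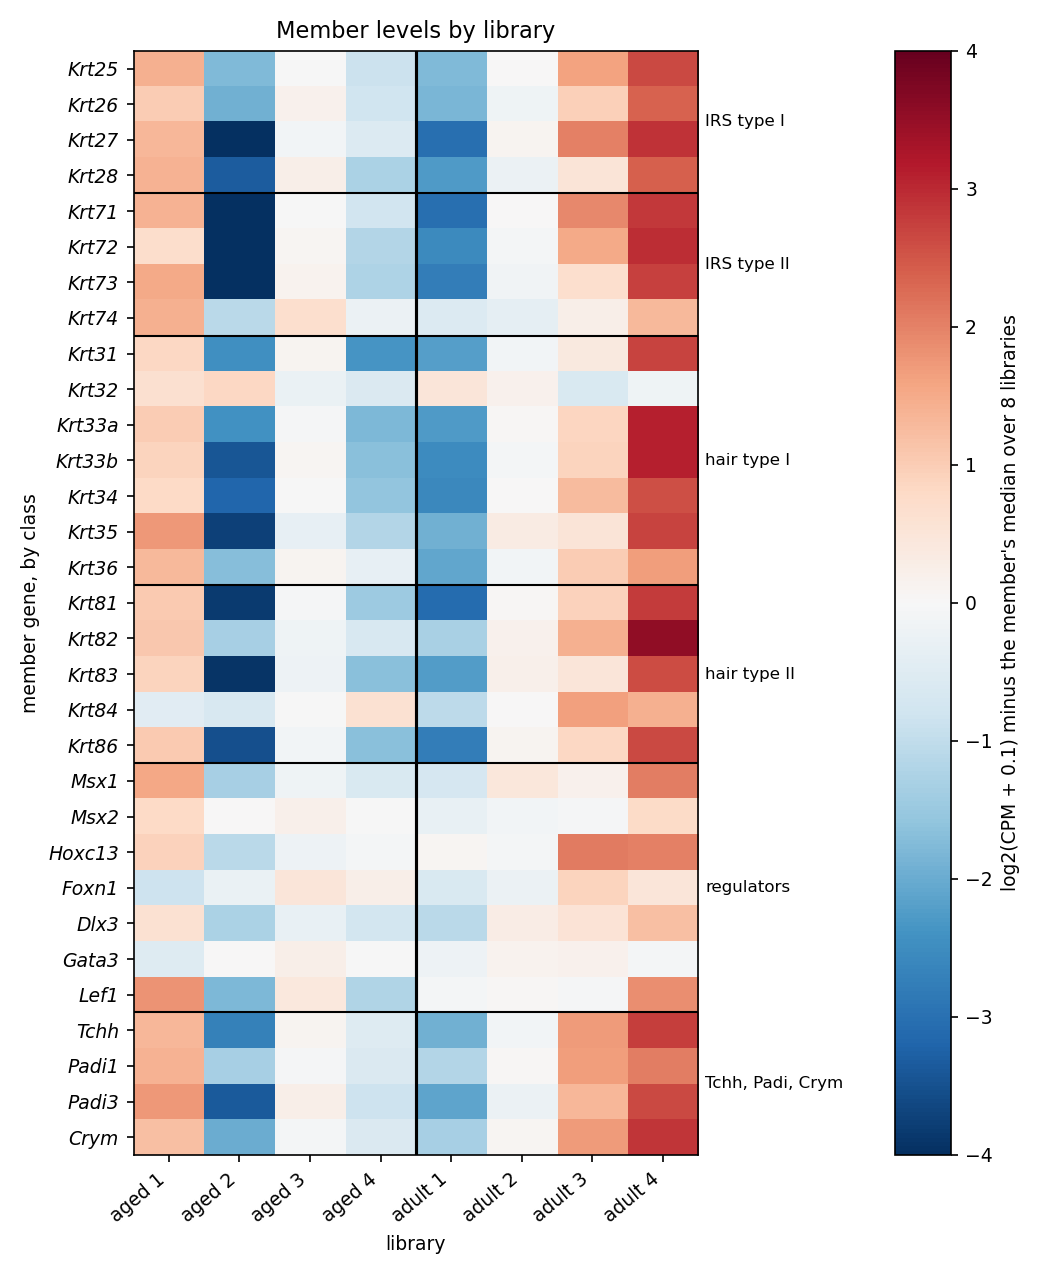
Each gene's log2(CPM + 0.1) in each library minus its own median over the 8 libraries, with aged libraries left and adult libraries right of the line. Colours are capped at 4 in either direction. Red cells gather in aged library 1 and adult libraries 3 and 4 and blue cells in aged library 2 and adult library 1, except in rows such as Krt32, Gata3 and Foxn1.

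Among the type I keratins of the inner root sheath, Krt25, Krt27 and Krt28 pair with Krt71 in the sheath layers, and Krt26 is known from the sheath cuticle in human follicles. Krt25 measured 51.8, 5.52, 19.1 and 10.4 CPM in aged libraries 1 to 4, against 5.62, 19.2, 58.5 and 119.6 CPM in adult libraries 1 to 4. For Krt27 the values were 20.8, 0.304, 7.56 and 5.61 CPM in aged mice, against 0.919, 8.81, 33.6 and 60.8 CPM in adult mice. In both genes aged library 1 lay above adult libraries 1 and 2, and the lowest value was in aged library 2. The log2 fold change was -1.22 ± 0.90 (SE) for Krt25 and -1.60 ± 1.18 for Krt27, with an adjusted p of 0.852 for each by edgeR. Without adult libraries 3 and 4 these became 0.80 ± 0.81 and 0.81 ± 1.20.

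The spread within a group differed among these 4 genes. The highest aged library exceeded the lowest 9.37-fold for Krt25 and 9.23-fold for Krt26, but 68.2-fold for Krt27 and 31.9-fold for Krt28, and among adult libraries the folds were 21.3, 21.9, 66.1 and 27.1 in the same order of genes. In aged library 2 Krt25 had 526 counts against 29 for Krt27, a ratio of 18.1, and in adult library 1 the ratio was 6.11. In the other libraries Krt25 had 1.74 to 2.53 times the counts of Krt27. Krt25 thus supplied 82.2% of the type I sheath keratin counts in aged library 2 and 69.7% in adult library 1, against 53.9% to 57.0% elsewhere. Krt26 ranged over 0.451 to 4.17 CPM in aged and 0.488 to 10.7 CPM in adult libraries, and Krt28 over 0.441 to 14.1 CPM in aged and 1.03 to 28.0 CPM in adult libraries.

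Of the type II keratins of the inner root sheath, Krt71 is the main partner of the type I chains, and Krt72 and Krt73 are known from the sheath cuticle in human follicles. Krt71 had 96.2, 2.16, 36.3 and 21.3 CPM in aged libraries 1 to 4, against 4.38, 36.5, 138 and 260.1 CPM in adult libraries 1 to 4. It was the most abundant keratin of the set per length, with a mean of 34 CPM per kb over the 8 libraries, against 18.2 for Krt25 and 11.2 for Krt27. Krt73 had 13.1, 0.0945, 5.05 and 1.86 CPM in aged mice, against 0.579, 4.06, 7.35 and 30.7 CPM in adult mice. Krt71 in adult library 3 lay above aged library 1, and Krt73 there lay below it.

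For Krt71 the log2 fold change was -1.49 ± 1.16 and for Krt73 -1.08 ± 1.23, with adjusted p of 0.856 and 0.897 by edgeR. Without adult libraries 3 and 4 they were 0.93 ± 1.17 and 1.11 ± 1.31. Krt72 spanned 0.0315 to 3.42 CPM in aged and 0.272 to 16.7 CPM in adult libraries, and its lowest value rests on 3 counts. Krt74, known from a layer of the sheath in human follicles, was the least abundant of the sheath keratins, with 0.105 to 1.05 CPM in aged and 0.193 to 0.966 CPM in adult libraries. It was highest in aged library 1, with a log2 fold change of 0.16 ± 0.72, and of 1.21 ± 0.82 without adult libraries 3 and 4.

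The balance of the 2 chain types was steady except where the sheath keratins were scarce. Summed per length, type I over type II sheath keratin was 0.949, 3.08, 0.944 and 0.950 in aged libraries 1 to 4, against 1.68, 0.955, 0.821 and 0.849 in adult libraries 1 to 4. The 2 libraries with an excess of type I chains were those with the lowest sheath keratin levels, aged library 2 and adult library 1. Krt25 made up 82.2% and 69.7% of the type I counts there, against 53.9% to 57.0% elsewhere.

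Hair type I keratins follow a sequence along the shaft in human follicles, with Krt35 appearing first, in matrix and cuticle, Krt32 in the cuticle, and Krt31, Krt33a, Krt33b, Krt34 and Krt36 in the cortex or in other hard keratin structures. Krt35 measured 12.8, 0.189, 2.98 and 1.61 CPM in aged libraries 1 to 4, against 0.908, 4.68, 5.33 and 25.1 CPM in adult libraries 1 to 4. Its log2 fold change was -1.04 ± 1.14 (adjusted p = 0.895, edgeR), and 0.65 ± 1.21 without adult libraries 3 and 4. Adult library 4 was the highest for 6 of 7 genes of this class, and aged library 1 stood above adult library 3 in 6 of 7.

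Krt32 departed furthest from the other keratins, with Krt84 also outside their pattern and Krt74 outside it only in the order of its highest libraries. It had 15.3, 17.3, 8.07 and 6.40 CPM in aged libraries 1 to 4, against 13.6, 11, 6.32 and 8.47 CPM in adult libraries 1 to 4. Aged library 2, the lowest for most other keratins, was its highest, and adult library 3 was its lowest. Krt32 therefore made up 94.4% of hair type I keratin per length in aged library 2 and 87.0% in adult library 1, against 9.02% in adult library 4. Its log2 fold change was 0.26 ± 0.34 (adjusted p = 0.912, edgeR), and -0.06 ± 0.37 without adult libraries 3 and 4. The other Krt genes of the class had aged and adult ranges of 0.189 to 2.71 and 0.238 to 10.2 CPM (Krt31), 0.472 to 6.10 and 0.545 to 26.7 CPM (Krt33a), 0.0315 to 2.52 and 0.148 to 12.1 CPM (Krt33b), 0.0735 to 2.62 and 0.159 to 9.25 CPM (Krt34), and 0.0735 to 1.30 and 0.0340 to 1.71 CPM (Krt36).

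Among hair type II keratins, adult library 4 was the highest for all but Krt84. In human follicles Krt81, Krt83 and Krt86 belong to the cortex and Krt82 to the cuticle. Krt81 had 4.96, 0.0735, 2.28 and 0.797 CPM in aged libraries 1 to 4, against 0.193, 2.45, 4.52 and 17.1 CPM in adult libraries 1 to 4. Krt86 had 4.50, 0.0945, 1.97 and 0.604 CPM in aged mice, against 0.227, 2.31, 3.85 and 13.8 CPM in adult mice. Aged library 1 and adult library 3 were close together in both genes, far above aged library 2 and adult library 1 and below adult library 4. Krt81 and Krt86 share sequence, so their single values are uncertain, as described below.

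By edgeR the log2 fold change was -1.58 ± 1.22 for Krt81 (adjusted p = 0.855) and -1.49 ± 1.16 for Krt86 (adjusted p = 0.856), and without adult libraries 3 and 4 these were 0.61 ± 1.3 and 0.49 ± 1.20. Krt82 had the lowest log2 fold change of the 31 genes, -2.37 ± 1.20, with values of 0.0315 to 0.590 CPM in aged and 0.0340 to 3.71 CPM in adult libraries, and it turned to 0.58 ± 1.08 without those 2 libraries. Krt83 ranged over 0.0420 to 3.90 CPM in aged and 0.363 to 13.0 CPM in adult libraries. Krt84, known from the tongue in humans, departed from the others, with 0.556, 0.472, 0.777 and 1.27 CPM in aged mice, against 0.329, 0.805, 2.67 and 2.30 CPM in adult mice. It was highest in adult library 3, and aged library 1 lay below adult library 2. Its log2 fold change was -0.99 ± 0.61, and 0.43 ± 0.52 without adult libraries 3 and 4.

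Shaft keratins other than Krt32 broadly followed sheath keratins, with a ratio per length of 0.154 to 0.302 over the 8 libraries. With Krt32 left out, hair keratin over inner sheath keratin per length was 0.239, 0.205, 0.257 and 0.176 in aged libraries 1 to 4, against 0.263, 0.302, 0.154 and 0.295 in adult libraries 1 to 4. The ranges of the ages overlapped, and the lowest ratio was in adult library 3. There the hair type I and type II genes had a median of 0.212 and 0.264 of their level in adult library 4, whereas the sheath type I and type II genes had medians of 0.430 and 0.397. Within hair keratins, type I over type II without Krt32 stayed at 1.38 to 2.18 in aged and 1.61 to 2.13 in adult libraries.

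Trichohyalin, encoded by Tchh, followed the sheath keratins. It had 165, 9.97, 71.2 and 46.2 CPM in aged libraries 1 to 4, against 17.3, 60.5, 214.5 and 447 CPM in adult libraries 1 to 4. Padi3, a deiminase that modifies trichohyalin, had 6.18, 0.0840, 2.12 and 0.954 CPM in aged mice, against 0.340, 1.51, 4.62 and 11.8 CPM in adult mice. Aged library 1 was above adult library 3 for Padi3 and below it for Tchh. The log2 fold change was -1.34 ± 0.97 for Tchh (adjusted p = 0.851, edgeR) and -0.96 ± 1.14 for Padi3 (adjusted p = 0.901), and 0.90 ± 0.88 and 1.33 ± 1.21 without adult libraries 3 and 4.

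Tchh had 1.55 to 2.17 times the counts of Krt71 in 6 libraries, 4.61 times in aged library 2 and 3.96 times in adult library 1. Like Krt25, it was thus less reduced than Krt71 in the 2 libraries with the least sheath keratin. Crym, for the thyroid hormone binding protein mu-crystallin, ranged over 0.189 to 2.54 CPM in aged and 0.352 to 8.15 CPM in adult libraries. Padi1, the other deiminase, ranged over 0.105 to 1.23 CPM in aged and 0.125 to 1.99 CPM in adult libraries.

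The transcription factors of the matrix had a median coefficient of variation of 0.49 within groups, against 1.02 for the keratins, with Msx1 (0.80) and Lef1 (0.77) the most variable. Hoxc13, a homeobox factor that binds hair keratin promoters, had 6.11, 1.44, 2.73 and 2.98 CPM in aged libraries 1 to 4, against 3.31, 2.99, 13.6 and 13.0 CPM in adult libraries 1 to 4. Adult libraries 3 and 4 stood above all 6 others. The log2 fold change was -1.31 ± 0.59 (adjusted p = 0.83, edgeR, the lowest of the set), and 0.07 ± 0.47 without those 2 libraries. By DESeq2 its adjusted p was 0.449.

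Foxn1, the forkhead factor whose loss makes nude mice hairless, measured 7.56, 11.2, 18.9 and 15.6 CPM in aged mice, against 8.74, 11.4, 25.1 and 18.8 CPM in adult mice. Here aged library 1, high for the keratins, was the lowest of all. The log2 fold change was -0.27 ± 0.36 (adjusted p = 0.914, edgeR), and 0.40 ± 0.32 without adult libraries 3 and 4. Dlx3, a homeobox factor needed for hair formation in mice, measured 11.6, 3.12, 6.22 and 4.53 CPM in aged mice, against 3.52, 9.33, 11.1 and 17.8 CPM in adult mice. Its order of mice was close to that of the keratins over a narrower range, with a log2 fold change of -0.71 ± 0.50 (adjusted p = 0.850, edgeR) and -0.01 ± 0.52 without adult libraries 3 and 4.

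Msx1 and Msx2 are homeobox factors of the matrix, and Lef1 carries Wnt signals to their target genes. Msx1 had 1.41, 0.105, 0.362 and 0.242 CPM in aged libraries 1 to 4, against 0.227, 0.601, 0.480 and 2.04 CPM in adult libraries 1 to 4. Msx2 had 7.73, 4.42, 5.11 and 4.35 CPM in aged mice, against 3.53, 4.07, 4.26 and 7.53 CPM in adult mice. Lef1 had 5.87, 0.388, 2.20 and 0.640 CPM in aged mice, against 1.5, 1.68, 1.54 and 6.09 CPM in adult mice. In all 3 genes aged library 1 and adult library 4 were the 2 highest, and adult library 3 lay below or close to adult library 2. The log2 fold changes were -0.65 ± 0.85 for Msx1, 0.16 ± 0.28 for Msx2 and -0.25 ± 0.82 for Lef1, with adjusted p of 0.911, 0.940 and 0.972 by edgeR. Without adult libraries 3 and 4 they were 0.35 ± 0.91, 0.51 ± 0.27 and 0.52 ± 0.90.

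Gata3, which directs inner sheath fate and is also made by interfollicular keratinocytes and lymphocytes, was the most abundant gene of the set per length, with a mean of 74.0 CPM per kb. It measured 167, 242, 284 and 237 CPM in aged libraries 1 to 4, against 209.9, 264.5, 271 and 229 CPM in adult libraries 1 to 4. No library stood out, and the value in aged library 1 was the lowest. The log2 fold change was -0.07 ± 0.16 (adjusted p = 0.961, edgeR), and -0.03 ± 0.21 without adult libraries 3 and 4.

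**Figure D4:**
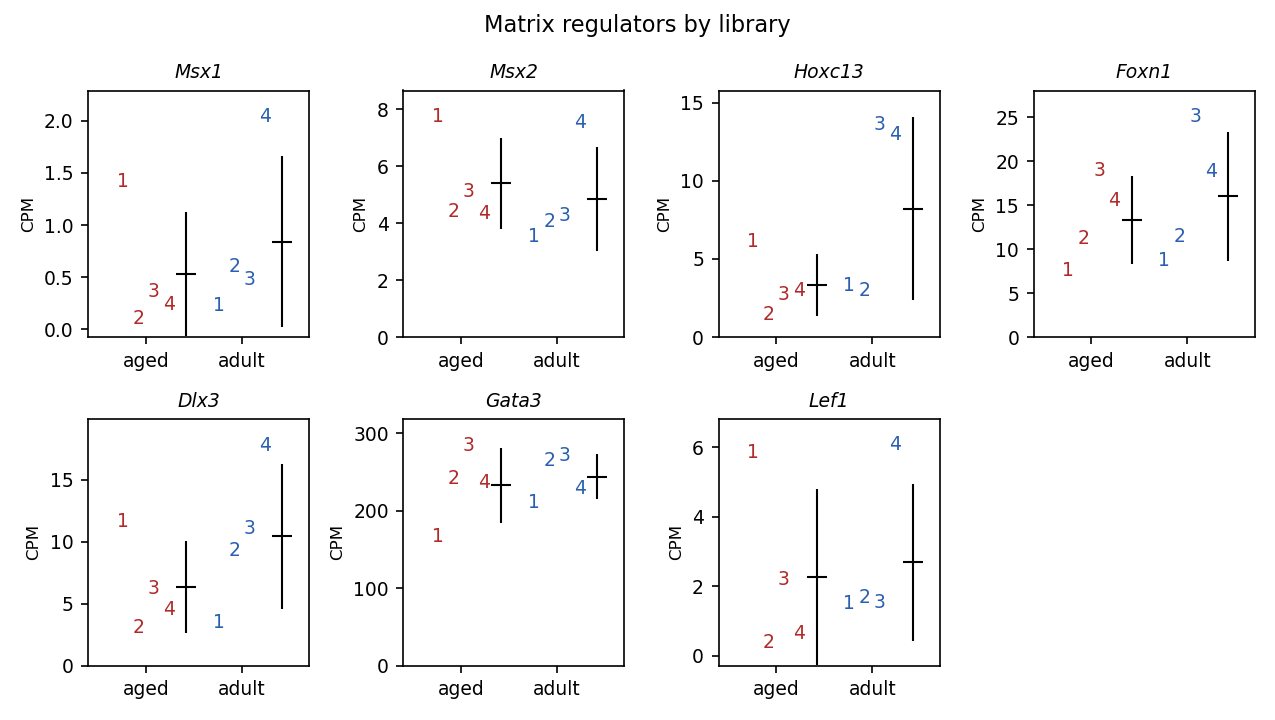
CPM of the 7 matrix regulators in each library, aged mice left and adult mice right, with the library number as the plotted symbol and the mean and SD (n = 4) as a bar at the side of each group. Aged library 1 and adult library 4 are high for Msx1, Msx2 and Lef1, adult libraries 3 and 4 for Hoxc13, and the levels of Gata3 lie within 167 to 284 CPM.

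The spread between mice can be set against that of all genes. The coefficient of variation within groups, as estimated by edgeR, was at least 0.8 for 21 of 31 genes, against 0.994% of all tested genes, with a median of 0.92 in the set and 0.20 over all genes. The highest was 1.13 for Krt33b. Krt32 (0.35), Foxn1 (0.36), Msx2 (0.30) and Gata3 (0.18) had the lowest values of the set. A difference of at least 5-fold between aged libraries 1 and 2, together with one of at least 5-fold between adult libraries 4 and 1, was present in 23 of 31 genes and in 0.723% of all genes.

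**Figure D5:**
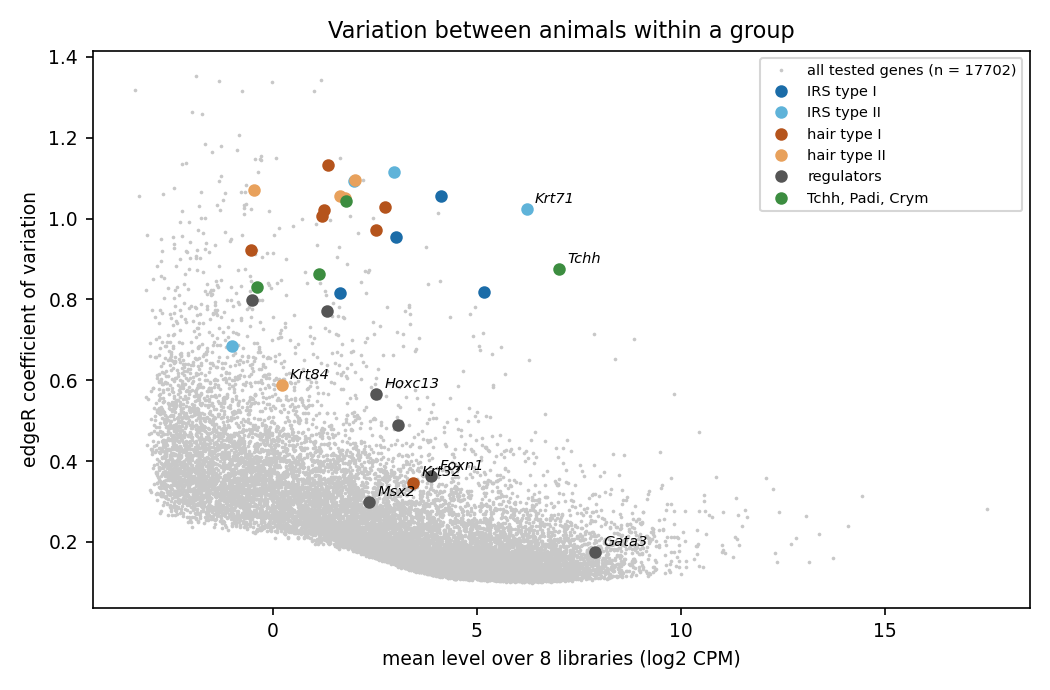
Coefficient of variation between mice of a group (edgeR) against the mean level over 8 libraries (log2 CPM) for all 17702 tested genes in grey and for the 31 genes in colour by class. Most keratins, with Tchh, lie near the top of the cloud at their level, and Gata3, Msx2, Krt32 and Foxn1 lie within or just above it.

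Genes outside the set with the same profile were looked for by correlation over the 8 libraries. Each gene's log2(CPM + 0.1) was correlated with the mean standardized profile of the 20 keratins. The coefficient reached 0.9 for 23 of the 31 genes and for 101 of all tested genes, a count that includes those 23. The keratins themselves make up the profile, so their own high values follow in part from its construction. Krt32 (-0.41), Gata3 (-0.09) and Foxn1 (0.40) had the lowest coefficients. The 8 most alike genes outside the set and the lists were Krt87 (0.99), Krtap8-1 (0.99), Heyl (0.98), Krtap11-1 (0.98), Calhm4 (0.98), Cryba4 (0.98), Krtap7-1 (0.97) and Crnn (0.97). Cryba4 was at 0 CPM in aged library 2 and adult library 1, and Calhm4 in adult library 1. Coefficients of such scarce genes depend in part on the added 0.1.

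Krt87 is a further keratin gene, and Krtap genes encode keratin-associated proteins, which embed the keratin filaments of the shaft. Krtap8-1 had 4.63, 0.147, 2.16 and 0.640 CPM in aged libraries 1 to 4, against 0.136, 2.35, 6.39 and 20.4 CPM in adult libraries 1 to 4. Among the 100 genes outside the set with the highest coefficients, 15 were Krtap genes, of 37 tested. All coefficients were computed over the same 8 libraries, whose batches are not known here, and they describe these libraries only.

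Other genes of the hair matrix, shaft and sheath, from a list of 37 of which 35 were tested, gave few differences with age. EdgeR called 0 of 35 (0.113% of all genes), with 2 at an unadjusted p under 0.05 (Tgm3 and Dsc2, against 5.99% of all genes), limma-voom called 0 (0.096%) and DESeq2 called 1, Tgm3 (1.07%). Of the 35 genes 12 were above 0 and 23 below, and the median log2 fold change was -0.19, or 0.08 without adult libraries 3 and 4. The median coefficient of variation within groups was 0.35 over the list, and some genes ranged more widely. An example chosen after the values were seen was the proline-rich Prr9, with 13.9, 0.546, 5.92 and 4.64 CPM in aged mice, against 1.26, 7.40, 29.8 and 44.6 CPM in adult mice. S100a3, a calcium-binding protein of the hair cuticle, had 3.66, 0.179, 2.29 and 0.688 CPM in aged mice, against 0.318, 1.52, 4.06 and 16.8 CPM in adult mice. Both had nearly the order of mice seen for the keratins.

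Other genes of the list, also chosen after their values were seen, had other orders. Shh, a signal of the growing matrix, had 0.926, 0.0630, 0.308 and 0.0966 CPM in aged mice, against 0.114, 0.181, 0.164 and 0.588 CPM in adult mice, with aged library 1 the highest. Wnt10a, a Wnt ligand, had 39.1, 40.4, 36.7 and 34.2 CPM in aged mice, against 30.8, 38.3, 8.91 and 13.3 CPM in adult mice, and was thus low in adult libraries 3 and 4, which were high for the keratins. Tgm3, the transglutaminase that crosslinks trichohyalin, had 29.8, 18.4, 30.4 and 42.2 CPM in aged mice, against 16.8, 11.6, 10.7 and 15.7 CPM in adult mice. The Tgm3 groups did not overlap, and the log2 fold change was 1.14 ± 0.24 with an adjusted p of 0.341 by edgeR, which did not pass, whereas it passed with DESeq2.

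Genes of the outer root sheath, bulge and companion layer did not share the spread of the keratins. Their 16 genes summed to 4072 to 5927 CPM in aged and 5650 to 6188 CPM in adult libraries. EdgeR called 0 of 16 (0.113% of all genes), with 10 at an unadjusted p under 0.05 (5.99%), limma-voom called 0 (0.096%) and DESeq2 called 8 (1.07%). Of the 16 genes 13 were below 0, and the median log2 fold change was -0.64, or -0.46 without adult libraries 3 and 4. The 12 proliferation genes had a median of 0.33 and 0.01 in the same 2 fits, and in the first fit edgeR, limma-voom and DESeq2 each called 0 and had 0 at an unadjusted p under 0.05.

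Markers of other cells moved with the keratins in part. All 6 dermal fibroblast markers (Col1a1, Col1a2, Col3a1, Dcn, Lum and Pdgfra) had aged library 1 and adult library 4 as their 2 highest libraries, and they summed to 48.7, 4.93, 11.6 and 13.8 CPM in aged libraries 1 to 4, against 12.2, 10.9, 18.2 and 45.4 CPM in adult libraries 1 to 4. The adipocyte markers summed to 1.61, 0.0210, 0.509 and 0.773 CPM in aged libraries 1 to 4, against 0.193, 0.578, 1.77 and 3.85 CPM in adult libraries 1 to 4. Their 3 highest and 2 lowest libraries were those of the keratins, although of the 4 markers only Fabp4 passed the filter, and Adipoq, Plin1 and Fabp4 were at 0 in a library. Melanocyte markers summed to 48.7, 19.6, 34.7 and 26.0 CPM in aged libraries 1 to 4. In adult libraries 1 to 4 they summed to 41.3, 25.7, 34.1 and 50.0 CPM, and Oca2 was at 0 in a library. Aged library 1 and adult library 4 were the 2 highest for 5 of 7 melanocyte markers, as for 2.23% of all tested genes. For dermal papilla markers this held for 2 of 6, Corin and Rspo4, with sums of 13.3 to 23.2 CPM in aged and 11.8 to 20.6 CPM in adult libraries and with Rspo4 and Sox2 at 0 in a library. Endothelial, sebocyte, leukocyte and muscle markers had 0 genes of this order, with sums of 1.7 to 3.25, 587 to 1141, 89.9 to 249 and 3.93 to 5.59 CPM in aged libraries, against 2.32 to 2.86, 676 to 836, 32.2 to 218 and 4.33 to 5.03 CPM in adult libraries. The part of these cells, and of mt-Rnr2, which was highest in adult library 4, in the keratin levels was not tested.

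Several hair keratins are close copies, and reads that aligned to more than 1 place were not counted. Of the 50-base windows of their transcripts, 43.3% in Krt86, 37.7% in Krt81, 33.1% in Krt34, 28.1% in Krt31, 24.2% in Krt33b, 22.1% in Krt83 and 17.8% in Krt33a also occurred in another gene. Levels of these genes are therefore uncertain, while Krt82 and Krt84 shared 0% and Krt71 and Krt73 1.97% and 1.3%. Padi1 (30.3% shared), Krt32, Lef1, Gata3 and Tchh overlap other annotated transcripts on the opposite strand, and no source here states whether counting used strand. Lef1 (with Gm42449) and Gata3 (with 9230102O04Rik) also overlap a transcript on their own strand.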

How the data were processed

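Bulk RNA sequencing was analysed for 4 aged and 4 adult mouse epidermal libraries, grouped by their titles. The authors deposited raw read counts per gene, without normalization. STAR 2.5.2b aligned the reads to mm10 and featureCounts counted them on its inbuilt annotation, as the methods and labels state. Reads overlapping several genes counted for each, multi-mapping reads were not counted and duplicates were kept. The labels also list mm9, and name polyA RNA although the kit is a ribosome-depleted, stranded total RNA kit.

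Entrez identifiers were named from RefSeq, which named 25275 of 27179. Exonic lengths and 50-base windows came from GENCODE transcripts of the same assembly, and took the place of a planned comparison of proteins, which was not made. The 17702 genes passing edgeR's expression filter entered edgeR 4.0.16 (quasi-likelihood test, R 4.3.3, trimmed-mean scaling), with Benjamini-Hochberg adjustment over all of them. Adjusted p-values come from edgeR unless a sentence says otherwise. The fit was tested on simulated data. The study's experimental batch entered no test, because no source here gives the batch of each sample. Alternatives were 3 scalings, 2 filters, DESeq2 1.42.0, limma-voom (limma 3.58.1), a replicate block, omission of each library, and omission of adult libraries 3 and 4 together.

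Depth makes counting error small for most genes, so the spread between mice sets the precision. Replicates differed far beyond counting noise (chi-square per degree of freedom 74.4 to 418). Both groups carry replicate numbers 1 to 4. Deviations of same-numbered libraries correlated at 0.156, 0.412, 0.205 and 0.206. On that basis alone, libraries of equal number were treated as pairs in the replicate block, and no other fit was paired. Of the unlike pairs, 3 also exceeded 0.1 (0.304 for aged 4 and adult 3, 0.236 for aged 3 and adult 4, 0.125 for aged 1 and adult 4). All pairings among numbers 1 and 2, and among numbers 3 and 4, were positive (0.0882 to 0.412). Pairings of 1 or 2 with 3 or 4 were at -0.436 to -0.0874, except that 0.125. Within ages, chi-square per degree of freedom was also lowest for libraries 1 and 2 and for libraries 3 and 4. It was 86.5 and 74.4 in adult mice (316 to 418 for other pairs) and 102 and 118 in aged mice (143 to 255). No fit used this grouping as its block, and its cause was not tested. The genes and lists were chosen with earlier results of these data known. Values in each library are given for all 7 regulators and, in every other class, for the 2 genes with the highest mean CPM, plus any with an unadjusted p under 0.05 (none), and for further genes chosen after their values were seen (Krt84, Krtap8-1, Prr9, S100a3, Shh, Wnt10a, Tgm3).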

Additional observations from a re-analysis of the deposited data

Results flagged for a closer look

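Among the values of the 31 genes within each group of 4 mice, 1 was set apart by a gap of more than 0.83 of the whole range of its group. This was Lef1 in adult library 4, at 6.09 CPM, against 1.5, 1.68 and 1.54 CPM in adult libraries 1 to 3, a gap of 0.961 of the range. Chance sets apart about 1 in 20 groups of 4 in this way if values are normally distributed, which CPM need not be. With 31 genes in both groups, 1 such value is no more than chance would give. Lef1 in aged library 1, at 5.87 CPM, lay near the same level.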

How the results depend on the processing

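In no setting was any of the 31 genes called, although a filter on CPM left only 25 of them to test. The lowest adjusted p over the settings was 0.304, against 0.83 in the edgeR fit of all libraries. The count of all genes called was 20, and it was 190 with DESeq2, 3 with the replicate block, 13 with scaling by library size (92.3% of them lower, against 75%), 8 at an adjusted p under 0.05 without a fold limit, 10 without adult libraries 3 and 4, and 6 to 15 with 1 library left out. The median log2 fold change of the set was 0.57 without adult libraries 3 and 4 and -2.13 to -0.25 with 1 library left out. The omitted pair held the highest keratin sums of the adult mice, and the cause of their levels was not tested. The replicate block changed no call of the set, and under it Krt74 was at -0.0018, as it was at -0.0072 with limma-voom.

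Without adult libraries 3 and 4, 27 of 31 genes changed sign: Krt25 0.80, Krt26 0.83, Krt27 0.81, Krt28 1.05, Krt71 0.93, Krt72 0.53, Krt73 1.11, Krt31 0.57, Krt32 -0.061, Krt33a 0.49, Krt33b 0.65, Krt34 0.46, Krt35 0.65, Krt36 1.29, Krt81 0.61, Krt82 0.58, Krt83 0.20, Krt84 0.43, Krt86 0.49, Msx1 0.35, Hoxc13 0.072, Foxn1 0.40, Lef1 0.52, Tchh 0.905, Padi1 0.81, Padi3 1.33 and Crym 0.57.

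With 1 library left out, 12 genes changed sign at least once, over Krt28 -1.82 to 0.38, Krt73 -2.21 to 0.33, Krt74 -0.51 to 0.84, Krt32 -0.0012 to 0.46, Krt35 -2.52 to 0.27, Krt36 -1.37 to 0.18, Msx1 -1.83 to 0.28, Msx2 -0.065 to 0.45, Foxn1 -0.48 to 0.036, Gata3 -0.18 to 0.064, Lef1 -1.34 to 0.53 and Padi3 -2.13 to 0.12. With 4 mice per group, the spread between mice and not the depth limits these estimates, whose standard errors had a median of 0.98.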
